A study of Mus musculus with 3 samples.

Results

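The genes described here are those of RANKL (Tnfsf11), of its decoy receptor osteoprotegerin (Tnfrsf11b) and its receptor RANK (Tnfrsf11a), of BAFF (Tnfsf13b), of TRAIL (Tnfsf10), and of TWEAK (Tnfsf12) with its receptor Fn14 (Tnfrsf12a). They were taken by gene symbol and are 7 of the 51912 genes listed in the count tables. The counts come from lymph node (LN) stroma of C57BL/6 mice that carry the CXCL13-TdTomato transgene, in which the Cxcl13 promoter drives Cre and TdTomato, so that red cells are those that make or have made the B cell chemokine CXCL13. Antigen immune complexes (antigen-ICs) were formed in the mice by an intraperitoneal injection of antibody followed by subcutaneous antigen in alum. Live LN cells positive for PDPN and TdTomato were sorted, and 3 single-cell libraries were read. By the library titles, the 2-IC libraries (here called replicates 1 and 2) had a first antigen-IC 7 days and a second 24 h before analysis. In the 1-IC library 1 antigen-IC was given 24 h before. The study's methods describe 3 independent experiments with the LNs of several mice pooled in each condition, but the labels tie no mice or experiment to a library, and the p-values below measure the spread between these libraries, which may be technical.

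RANKL is a trimeric membrane-bound or shed ligand of the TNF family that signals through RANK to NF-kB, and osteoprotegerin is a soluble receptor that captures it before it reaches RANK. In LNs, RANKL of stromal cells acts on macrophages and endothelial cells that carry RANK, and it is needed for LNs to form. BAFF keeps mature B cells alive through its receptor BAFF-R, and stromal cells are a known source of it, while TRAIL binds death receptors and TWEAK acts through Fn14.

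The libraries held 3790, 1029 and 667 barcodes and 20607903, 12788101 and 3766526 UMIs (unique molecular identifiers, 1 for each captured RNA molecule) in the order 2-IC replicate 1, 2-IC replicate 2 and 1-IC, an order kept throughout. After the filters of the study, 1526, 391 and 326 cells remained, with a median of 4700.5, 14732 and 5979 UMIs. The libraries of the 2-IC condition shared 76 barcodes (median 782.5 UMIs in replicate 1 and 32618.5 in replicate 2), and 2-IC replicate 1 shared 2 with the 1-IC library. Clustering without the 7 genes gave 11 clusters. Clusters 5 and 9 (295 cells) were led by immunoglobulin and myeloid genes and were left out of the tests. The other 9 held 1948 cells, of which 95.3% had a UMI of Cxcl13, 44.6% of Pdpn and 1.39% of the endothelial gene Pecam1, and none had one of Ptprc, which encodes CD45.

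Of these clusters, 5 were named from markers. The FDC-like cluster (241 cells) had Cr2, the complement receptor of follicular dendritic cells (FDCs), in 71.4% of its cells against 2.69% of the other stromal cells, and also Madcam1, a marker of marginal reticular cells (MRCs), in 56.8% against 2.40%. Other MRC markers were mixed. Bst1 was in a larger share and Enpp2 in a smaller share of its cells than of other stromal cells. Il34 differed little (7.05% against 6.56%). In flow cytometry the study gated FDCs themselves as high in CR2 and positive for Madcam1. Madcam1 alone therefore does not show that the cluster held MRCs. The TBRC-like cluster (244 cells) had genes of reticular cells at the T-B border such as Ccl21a, and the MedRC-like cluster (264 cells) had genes of medullary reticular cells such as Inmt. The IFRC-like cluster (405 cells) took its name, interfollicular reticular cells, from Ch25h (28.4% against 7.97% of other stromal cells) and Cxcl13. Another of its markers, Cyp7b1, was not higher (11.1% against 12.7%), and Igha stood first among its leading genes. Tnfsf11 was itself among the 10 leading genes of this cluster, and the study used it to tell these cells apart. The Interferon-like cluster (30 cells) was led by interferon-induced genes, and clusters 1, 6, 7 and 8 met no name. None of the markers of their best-scoring class was among their 10 leading genes. That class was MedRC for cluster 1, TBRC for clusters 6 and 8, and IFRC for cluster 7. Cluster 7 held cells of 2-IC replicate 2 alone, and 156 of the 182 cells of cluster 6 came from that library. For cluster 6, type and library are thus largely confounded. That library gave 8 TBRC-like cells, and whether cluster 6 holds further cells of that kind was not tested.

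The 100 bases before the annotated start of Tnfsf11 and of Tnfsf13b are shown because these are the ligands whose levels ran across the stromal types in different orders. They were read from RefSeq sequences on GRCm38.p6, where 5 of the 7 genes were matched. The strand is minus at chr14:78308044-78308143 for Tnfsf11 and plus at chr8:10006367-10006466 for Tnfsf13b. Capitals mark the letters TATAA or CCAAT on either strand, here TATAA with the overlapping TTATA, and ATTGG, the reverse complement of CCAAT.
Tnfsf11: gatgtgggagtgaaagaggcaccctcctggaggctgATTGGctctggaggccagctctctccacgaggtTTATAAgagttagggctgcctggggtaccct
Tnfsf13b: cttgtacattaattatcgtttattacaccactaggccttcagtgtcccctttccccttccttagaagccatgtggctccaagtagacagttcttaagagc
In Tnfsf11 the letters TATAA began 30 bases and ATTGG 64 bases before the start, and in Tnfsf13b neither motif was found in this window. Of 32851 promoters, 10.2% held TATAA and 18.9% CCAAT on either strand in the same window, so a match is a description of the letters only.

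Among whole stromal clusters, RANKL was highest in IFRC-like cells. Tnfsf11 (ENSMUSG00000022015, chr14:78277445-78308043 on GRCm38, minus strand) had 2006 UMIs in the retained cells, and IFRC-like cells, 18.1% of these cells, held 888 of them (44.3%). Levels are given as CPM, a gene's UMIs summed over a cluster and library and scaled to a sum of 1000000. IFRC-like cells had 300, 291 and 297 CPM in the 3 libraries (mean 296 ± 4.45, SD, n = 3). MedRC-like cells had 165, 125 and 111 CPM (134 ± 27.7) and FDC-like cells 85.0, 143 and 104 CPM (111 ± 29.4). TBRC-like cells had 41.2, 0 and 38.4 CPM (26.5 ± 23.0), the 0 being a sum of 8 cells in which 3 counts would be 38.4 CPM. Every IFRC-like value thus lay above every value of these 3 types, the MedRC-like and FDC-like ranges overlapped, and every TBRC-like value lay below both. In the Interferon-like cells of 2-IC replicate 1 and of the 1-IC library Tnfsf11 was at 192 and 178 CPM, between the IFRC-like and the MedRC-like values.

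The clusters without a name spanned a similar range. Cluster 7 had 128 CPM in its 1 library and cluster 1 had 33.2, 45.8 and 8.75 CPM. Cluster 6 had 60.3 and 82.4 CPM in the 2-IC libraries, and cluster 8 had 101 CPM in 2-IC replicate 1 and 55.1 CPM in the 1-IC library. None reached the IFRC-like level. Cluster 5 (239 cells, median 1182 UMIs), led by immunoglobulin genes and left out of the tests, had a UMI of Cxcl13 in 83.3% of its cells. Its Tnfsf11 averaged 101 CPM and its Tnfsf13b 111 CPM over the 3 libraries. Counted by cells, 58.5% of IFRC-like, 44.7% of MedRC-like, 24.1% of FDC-like and 18.0% of TBRC-like cells had a Tnfsf11 UMI, with median depths of 6273, 4880.5, 5427 and 7657 UMIs. With each cell thinned to 2000 UMIs these shares were 33.8%, 25.6%, 14.6% and 7.47%, in the same order. As a measure of free RNA, barcodes were also clustered with the study's filter on contaminant genes left out. Of 567 B cell-like barcodes (median 3124 UMIs) found in this way, 1.41% had a Tnfsf11 UMI. These barcodes were shallower than the 4 types. A deeper B cell-like cluster (174 barcodes, median 6711.5 UMIs) was not used for this measure.

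**Figure D1:**
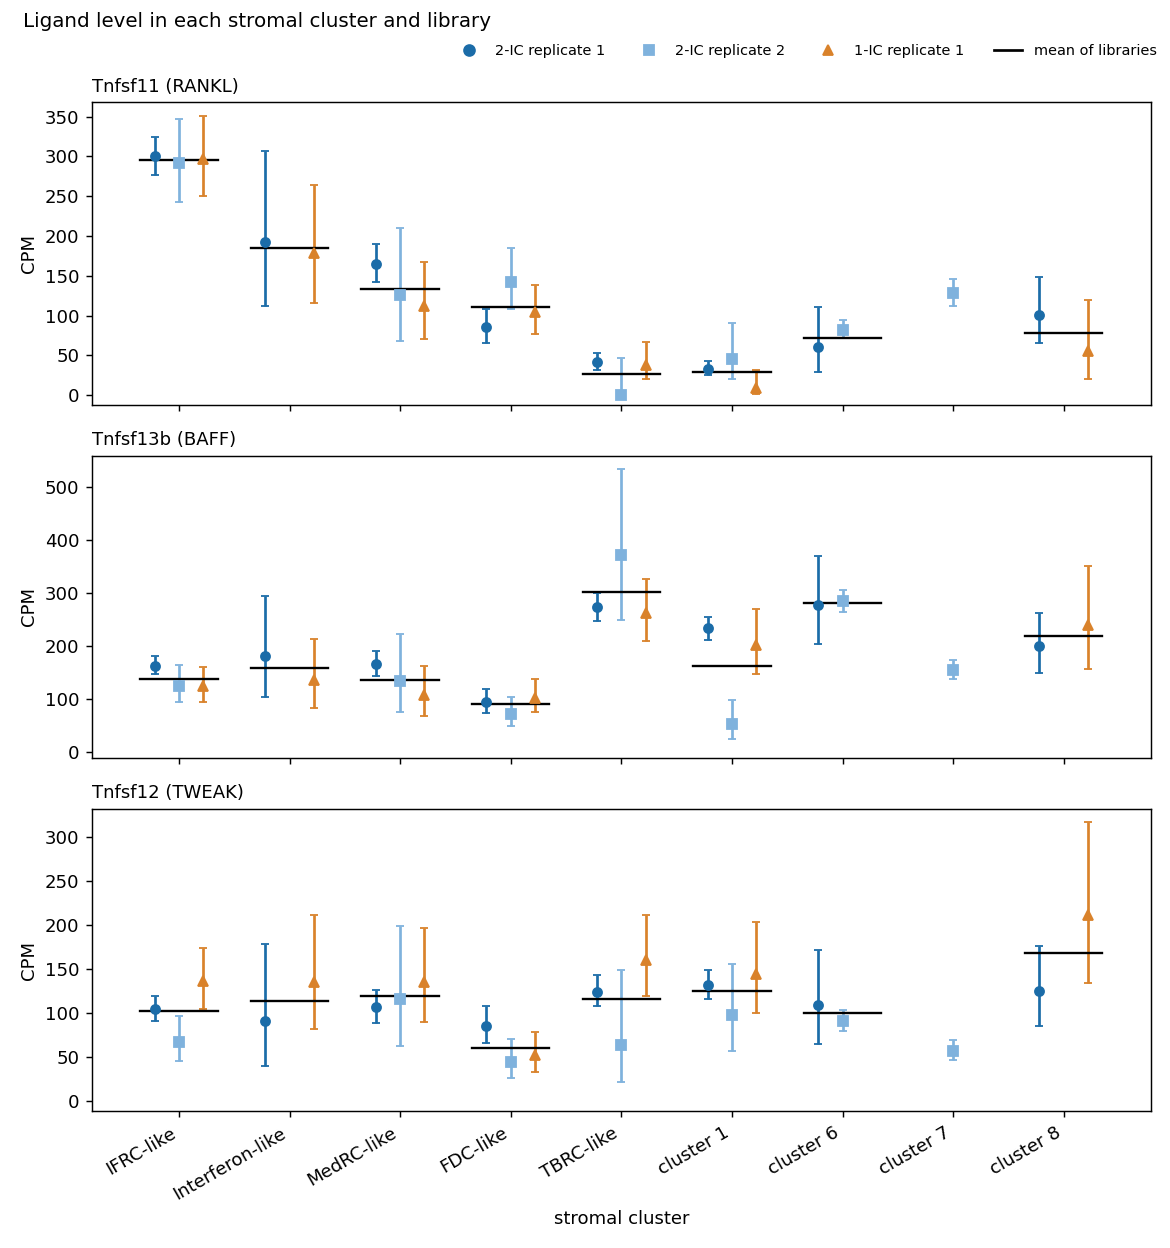
Tnfsf11, Tnfsf13b and Tnfsf12 in CPM (y axis) in each stromal cluster (x axis). Points are libraries with exact Poisson 95% intervals, which cover counting error only, and black bars are means over libraries. Among these clusters Tnfsf11 lies highest in IFRC-like cells (291 to 300 CPM), and Tnfsf13b lies at 262 to 371 CPM in TBRC-like cells and at 71.4 to 102 CPM in FDC-like cells.

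Tnfsf11 differed across the stromal types beyond the spread between libraries. Sums of at least 5 cells were fitted with edgeR's quasi-likelihood test with the library as a block, over 21 sums of 8 types, and p-values were adjusted by the Benjamini-Hochberg method over all 6830 genes tested. Of the 7 genes, 3 passed the filter on low counts and all 3 were called, Tnfsf11 with an adjusted p of 1.3e-11, Tnfsf13b with 1.2e-05 and Tnfsf12 with 0.0038, where 30.4% of all tested genes were called. Without that filter (22136 genes, 12.3% called, edgeR) the adjusted p was 0.000207 for Tnfrsf12a, 0.0550 for Tnfrsf11a, 0.584 for Tnfsf10 and 0.999 for Tnfrsf11b. Cluster 7, present in 1 library, was in neither fit.

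Between IFRC-like and TBRC-like cells Tnfsf11 differed 7.15-fold (log2 fold change 2.84, SE 0.276, edgeR adjusted p = 5.06e-09, higher in 3 of 3 libraries), with 3.78% of all genes called in this pair. IFRC-like cells stood 2.66-fold above FDC-like cells (1.41, SE 0.224, adjusted p = 5.72e-06, 3 of 3 libraries, 21.0% of genes called). Both calls held under all 11 alternatives run, which kept the same cluster labels. Those that removed only FDC-like cells left the IFRC-like and TBRC-like sums unchanged and could hardly move the first call. IFRC-like cells also stood 1.97-fold above MedRC-like cells (0.98, SE 0.232, adjusted p = 0.00552, 3 of 3 libraries, 5.65% of genes called). This call was lost without the library block (adjusted p = 0.0708), without 2-IC replicate 1 (0.177) and without the 1-IC library (0.197).

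MedRC-like cells had 3.63-fold more Tnfsf11 than TBRC-like cells (log2 fold change 1.86, edgeR adjusted p = 5.61e-05, 4.77% of genes called), and without 2-IC replicate 1 the adjusted p was 0.160. Interferon-like cells stood above TBRC-like cells (adjusted p = 0.000537, 2.59% of genes called), which was lost in thinned cells (0.450). FDC-like cells stood 2.68-fold above TBRC-like cells (adjusted p = 0.000328, 25.3% of genes called). That call was lost in thinned cells (0.160) and when FDC-like cells without a Cr2 UMI were left out (log2 fold change -0.24 for TBRC-like over FDC-like, 0.693). Several pairs were not called after adjustment over all genes tested. Before adjustment the edgeR p was 0.0423 for IFRC-like over Interferon-like and 0.0407 for FDC-like over Interferon-like cells. MedRC-like over FDC-like was 0.43 (95% interval -0.13 to 1.00, adjusted p = 0.242, 25.8% of genes called), IFRC-like over Interferon-like 0.67 (0.481, 1.79%), MedRC-like over Interferon-like -0.31 (0.813, 2.42%) and FDC-like over Interferon-like -0.74 (0.193, 12.5%). The first of these was called in thinned cells (adjusted p = 0.0194), without 2-IC replicate 2 (0.00917) and without the FDC-like cells that lack Cr2 (5.83e-05).

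BAFF ran in another order. Tnfsf13b (ENSMUSG00000031497, chr8:10006467-10039072, plus strand, overlapping an antisense gene, Gm44789) had 3086 UMIs in the retained cells and a UMI in 55.2% of them, against 1.06% of the same 567 shallower B cell-like barcodes. TBRC-like cells had 272, 371 and 262 CPM (302 ± 60.2, SD, n = 3). IFRC-like cells had 162, 125 and 123 CPM (137 ± 22.3), MedRC-like cells 165, 134 and 107 CPM (135 ± 29.1) and FDC-like cells 94.1, 71.4 and 102 CPM (89.1 ± 15.9). TBRC-like values did not overlap those of these 3 types, and FDC-like values lay below every IFRC-like and MedRC-like value. Outside the named types, cluster 6, mostly cells of 2-IC replicate 2 and scoring best for TBRC, was close to TBRC-like cells at 277 and 284 CPM. Cluster 8 had 198 and 239 CPM. Cluster 1 had 232, 51.6 and 201 CPM, its low value being a sum of 8 cells, and cluster 7 had 154 CPM.

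TBRC-like cells had 3.30-fold more Tnfsf13b than FDC-like cells (log2 fold change 1.72, edgeR adjusted p = 3.24e-06), a call kept under all 11 alternatives run with these cluster labels. They had 2.19-fold more than IFRC-like cells (log2 fold change -1.13 for IFRC-like over TBRC-like, SE 0.251, adjusted p = 0.00345, lower in 3 of 3 libraries), lost without 2-IC replicate 1 (0.115) and without the 1-IC library (0.0837). The difference from MedRC-like cells (-1.08 for MedRC-like over TBRC-like, adjusted p = 0.0119) was lost without the library block (0.0857), in thinned cells (0.295), without 2-IC replicate 1 (0.241) and without the 1-IC library (0.174). IFRC-like and MedRC-like cells did not differ beyond their spread (-0.06, 95% interval -0.65 to 0.53, adjusted p = 0.980). IFRC-like over FDC-like was 0.59 (95% interval 0.01 to 1.16, edgeR adjusted p = 0.117). MedRC-like over FDC-like was 0.65 (0.02 to 1.27, adjusted p = 0.0980). Neither pair was called after adjustment, although both intervals lay above 0. Without 2-IC replicate 2 both were called (0.0362 and 0.0220), and in thinned cells the MedRC-like pair was called (0.0456).

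**Figure D2:**
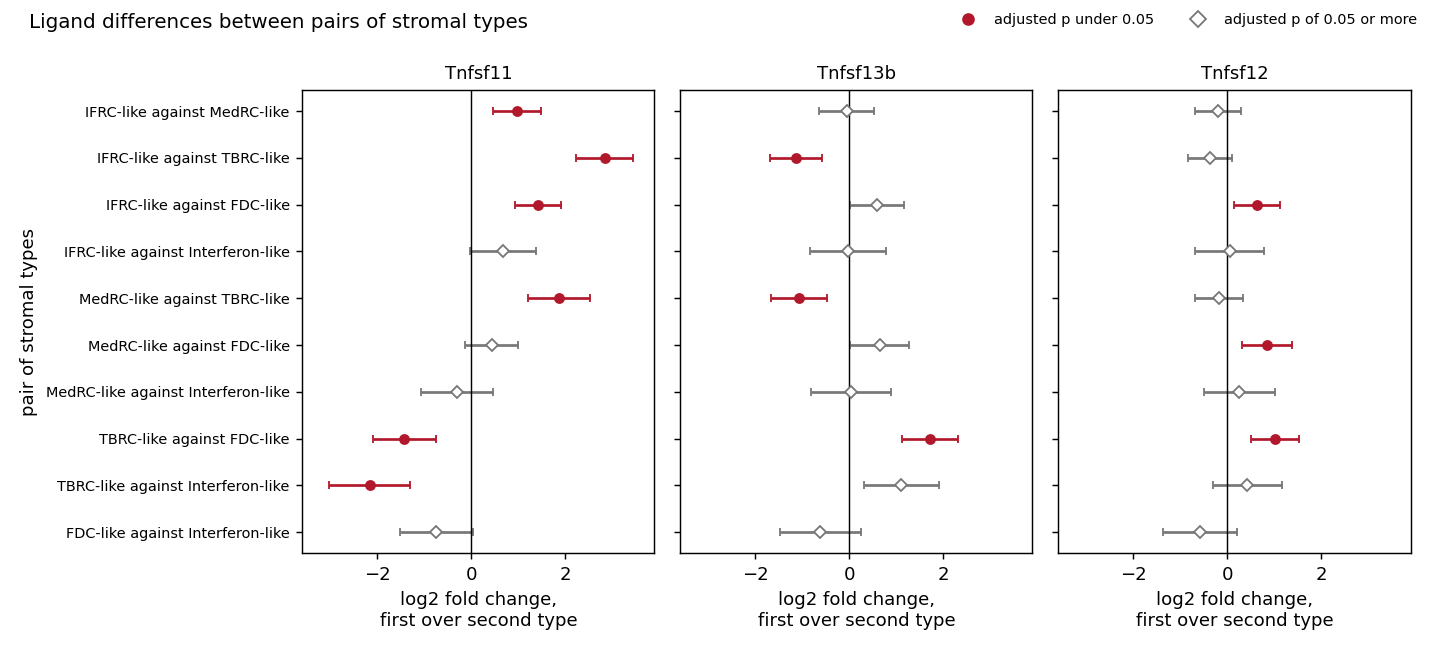
Log2 fold changes of Tnfsf11, Tnfsf13b and Tnfsf12 (x axis, first type over second) between pairs of named stromal types (y axis) from edgeR, with 95% intervals. Filled red points have an adjusted p under 0.05. Tnfsf11 is higher in IFRC-like than in TBRC-like cells (2.84) while Tnfsf13b is lower in IFRC-like than in TBRC-like cells (-1.13).

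Over the 21 sums, with the mean of each library subtracted from log2(CPM + 1), Tnfsf11 and Tnfsf13b had a Pearson r of -0.57 (Spearman rho -0.52). These sums share libraries and depth, and r is given as a description. Among 2930 genes with a mean of at least 50 CPM, those most like Tnfsf11 were Rspo3 (r = 0.904), a secreted enhancer of Wnt signalling, Plin2 (0.902), a lipid droplet protein, Arhgap5 (0.891), Rgs17 (0.871) and Snap23 (0.869). Those most like Tnfsf13b were Il7 (0.895), the T cell survival cytokine and itself a marker used to name TBRC-like cells, Mme (0.865), C4b (0.828), Twsg1 (0.811) and Igf1 (0.799). In single cells thinned to 2000 UMIs, both ligands were seen together in 73 of 1924 cells (3.79%, exact binomial 95% interval 2.99 to 4.75%). In IFRC-like cells they were seen together in 24 of 391 cells (6.14%), against 9.32% from the product of their shares.

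The FDC-like cluster was not uniform for RANKL. Of its 241 cells, 172 had a UMI of Cr2, 33 had Madcam1 without Cr2, and 36 had neither, with median depths of 5687, 6672 and 3511 UMIs. The 33 Cr2-negative Madcam1-positive cells held 103 of the 170 Tnfsf11 UMIs of the cluster, and the 172 Cr2-positive cells held 53. Their levels were 328, 477 and 262 CPM (17, 5 and 11 cells) against 44.1, 20.7 and 66.8 CPM in Cr2-positive cells, without overlap. These levels lay above those of IFRC-like cells in both 2-IC libraries and below in the 1-IC library, a difference that was not tested. Against Cr2-positive cells Tnfsf11 was 7.60-fold higher (log2 fold change 2.93, SE 0.353, edgeR adjusted p = 3.5e-06), where 6.29% of 3229 tested genes were called. This held under all 9 alternatives that gave a value for Tnfsf11, including without the shared barcodes (2.36, edgeR adjusted p = 0.00104). A further alternative gave no value for the gene, and all kept the cluster itself unchanged. The study used Tnfsf11 among the genes that name MRCs, whereas here the split used Cr2 and Madcam1 alone. The study's FDC gate required high CR2 protein as well as Madcam1. Madcam1 is thus shared with FDCs, and a cell without a Cr2 UMI may still express the gene below this depth. The split does not by itself show that the Cr2-negative Madcam1-positive cells are MRCs, and their identity was not tested. The fit has 2 residual degrees of freedom, and its spread rests on sharing across genes.

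BAFF did not follow this split. Tnfsf13b was at 113, 76.3 and 87.2 CPM in the Cr2-negative Madcam1-positive cells and at 81.4, 72.5 and 85.9 CPM in Cr2-positive cells (log2 fold change 0.14, 95% interval -1.52 to 1.79, edgeR adjusted p = 0.932). The values lay close together in each library, but the interval is wide. Tnfsf12 gave -0.41 (adjusted p = 0.806).

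Within the same cluster, 69 cells had under 1% of their UMIs from Malat1, a long non-coding RNA held in the nucleus. They were shallower (median 3260 UMIs) than the other 172 cells (7184.5). Malat1-poor cells had no Tnfsf11 UMI in any library, while the Malat1-rich cells had 102, 168 and 121 CPM. Pooled over libraries, 0 of 251828 UMIs allows up to 11.9 CPM (3 counts over the group), so that Tnfsf11 was at least 10.4-fold higher in Malat1-rich cells, at 124 CPM (edgeR adjusted p = 0.00168), where 20.4% of 3654 genes were called. Tnfsf13b was at 101, 16.5 and 80.3 CPM against 92.7, 81.0 and 105 CPM (log2 fold change -0.40, adjusted p = 0.561), and Tnfsf12 gave 0.56 (adjusted p = 0.389). Both splits overlap in part, and the 10.4-fold ratio includes the Cr2-negative Madcam1-positive cells, with 103 of the 170 Tnfsf11 UMIs. It was not computed without them. Malat1-poor cells made up 28 of 96, 9 of 27 and 18 of 49 Cr2-positive cells and 1 of 17, 0 of 5 and 1 of 11 Cr2-negative Madcam1-positive cells. Without the Malat1-poor cells the Cr2 split of Tnfsf11 stood at 2.65 (adjusted p = 7.57e-07).

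**Figure D3:**
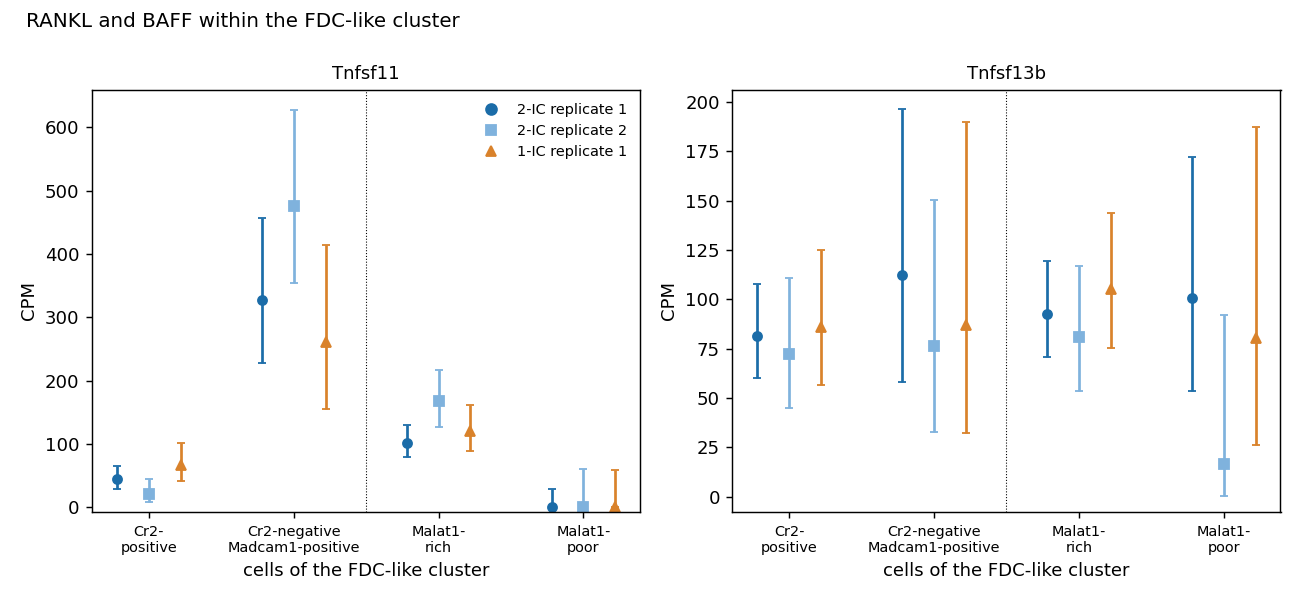
Tnfsf11 and Tnfsf13b in CPM (y axis) in the FDC-like cluster split by Cr2 and Madcam1 and by the share of Malat1, 1 point for each library with exact Poisson 95% intervals. Tnfsf11 is at 262 to 477 CPM in Cr2-negative Madcam1-positive cells and at 0 in Malat1-poor cells, while Tnfsf13b stays between 72.5 and 113 CPM in both sides of the Cr2 split.

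The decoy receptor was almost unseen. Tnfrsf11b (ENSMUSG00000063727, chr15:54250619-54278484, minus strand) had 2 UMIs in the 2243 retained cells, both in FDC-like cells of 2-IC replicate 1, and 5 UMIs in all 5486 barcodes. In IFRC-like cells it was seen in 0 of 405 cells, which allows up to 0.741% of cells with a UMI (3 counts) and sets no limit on cells that express the gene below this depth. No cell had a UMI of both Tnfsf11 and Tnfrsf11b at 2000 UMIs per cell. With Tnfrsf11b in only 2 retained cells before thinning, this absence says nothing about whether the genes are expressed together. At such counts a difference between stromal types was not detectable at this depth.

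RANK itself was rare in stroma. Tnfrsf11a (ENSMUSG00000026321, chr1:105780718-105847981, plus strand) had 14 UMIs in the retained cells, 1 in each of 14 cells. Of these cells, 8 were FDC-like (3.32%, exact binomial 95% interval 1.44 to 6.44%), 4 were in the myeloid cluster 9, 1 was TBRC-like and 1 was in cluster 1. IFRC-like and MedRC-like cells had none. Of the 8 FDC-like cells 7 had Cr2, none had the myeloid gene Tyrobp and 1 had Lyz2. The 7 myeloid markers, each with a UMI in this cluster, summed to 140 to 325 CPM in FDC-like cells against 12.8 to 241 CPM in the other stromal clusters and 11960 to 14554 CPM in cluster 9, and their part in the RANK counts was not tested.

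Barcodes clustered again without the study's filter on contaminant genes show where RANK and TRAIL lay in the same suspensions. This clustering held the retained cells as well as the removed barcodes, so its groups can overlap the cells counted above. With that filter left out, 15.5% of 110 Myeloid-like barcodes (38.4 CPM) and 32.1% of 28 Endothelial-like barcodes (47.5 CPM) had Tnfrsf11a, compared with 3.38% of 296 FDC-like barcodes (4.40 CPM) and 0 of 567 B cell-like barcodes. Both groups lie outside the stroma that the sort was meant to collect, and 23 of the 28 Endothelial-like barcodes came from 2-IC replicate 1. Tnfsf10 (ENSMUSG00000039304, chr3:27317028-27342427, plus strand) was found in 64.3% of Endothelial-like (164 CPM) and 6.70% of T cell-like barcodes (13.1 CPM), against 1.41% of B cell-like barcodes. In the retained cells it had 17 UMIs in all, 7 of them in cluster 1 and 4 in IFRC-like cells. T cell-like barcodes had 41.6 CPM of Tnfsf11 (10.5% of 209 barcodes) against 4.54 CPM in B cell-like barcodes, and 0 of 28 Endothelial-like barcodes had it. Barcodes with T cell RNA can also carry stromal RNA, whose part in these UMIs was not tested. Tnfrsf13c, which encodes BAFF-R, stood at 271 CPM and 215 CPM in the B cell-like clusters, with a UMI in 55.2% and 73.6% of their barcodes. These are pooled values of clusters that can mix retained and removed barcodes, and they carry no test.

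**Figure D4:**
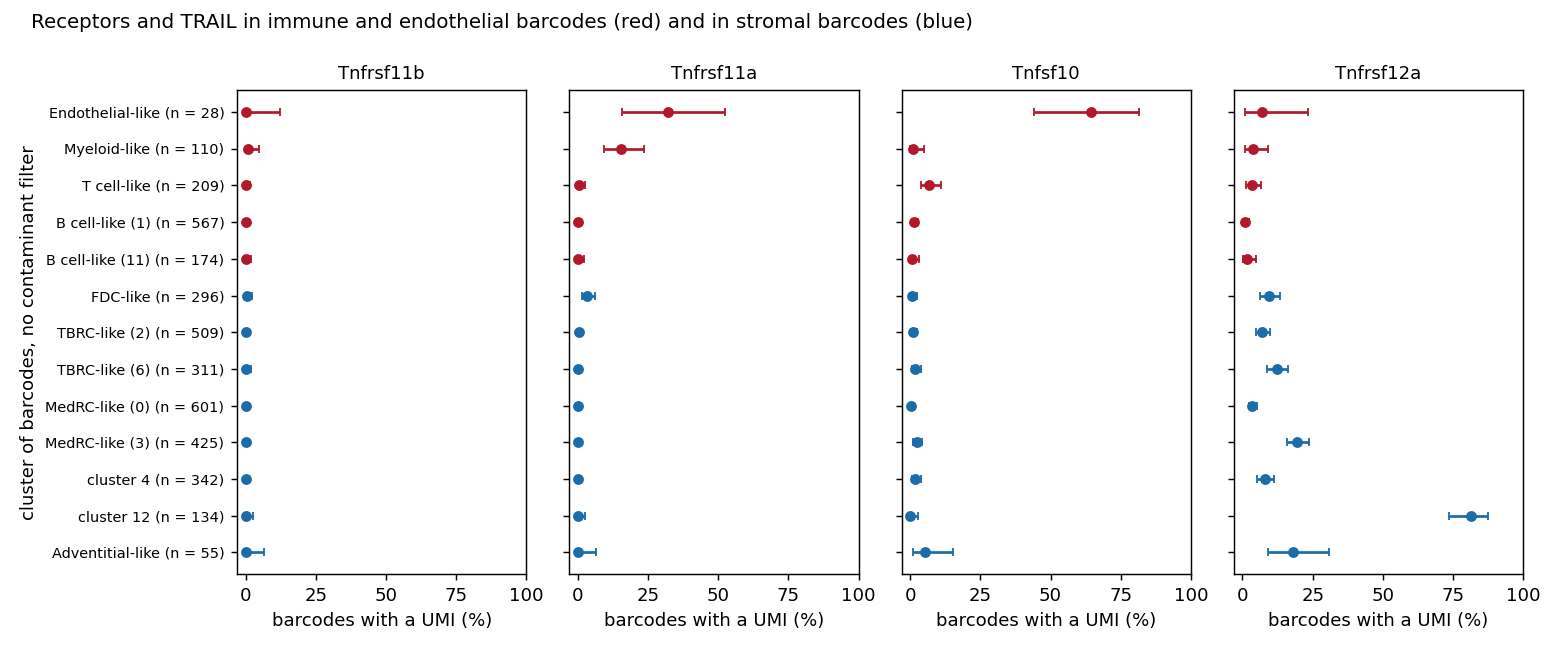
Percent of barcodes with a UMI (x axis) of Tnfrsf11b, Tnfrsf11a, Tnfsf10 and Tnfrsf12a in clusters of barcodes (y axis, those led by plasma cell genes not drawn) when the contaminant filter is left out, with exact binomial 95% intervals. Red marks immune or endothelial and blue marks stromal barcodes. Tnfrsf11a reaches 32.1% and Tnfsf10 64.3% in Endothelial-like barcodes, and Tnfrsf12a is highest in the cluster made up almost entirely of 2-IC replicate 2 (81.3%).

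TWEAK was spread across the stroma. Tnfsf12 (ENSMUSG00000097328, chr11:69686250-69695849, minus strand) had 1612 UMIs, with 105, 67.0 and 136 CPM in IFRC-like, 106, 116 and 136 CPM in MedRC-like and 124, 64.0 and 160 CPM in TBRC-like cells. FDC-like cells had 85.0, 44.3 and 52.1 CPM (60.5 on average), the lowest of the 4 types in each library. They lay below TBRC-like (2.02-fold, edgeR adjusted p = 0.000932), MedRC-like (1.79-fold, 0.00822) and IFRC-like cells (1.56-fold, 0.0357). Without the 1-IC library these became 0.171, 0.239 and 0.607, and in thinned cells 0.160, 0.0975 and 0.253. The IFRC-like call was lost in 7 of 11 alternatives, the others being no filter on low counts (0.0570), no library block (0.167), without 2-IC replicate 1 (0.0886), without the shared barcodes (0.0767) and DESeq2 (0.113). The gene shares sequence with the read-through gene Tnfsfm13 (chr11:69682577-69696098, minus strand), so its counts are uncertain.

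Most UMIs of the receptor Fn14 came from 1 library. Tnfrsf12a (ENSMUSG00000023905, chr17:23675445-23677468, minus strand) was at 15.3, 102 and 5.44 CPM over all retained cells. Cluster 7, found in 2-IC replicate 2 alone and with Tnfrsf12a among its leading genes, held 487 of the 715 UMIs, at 260 CPM and in 83.8% of its cells. Without it the libraries stood at 15.3, 23.4 and 5.44 CPM. In FDC-like cells the level was 14.2, 12.3 and 9.06 CPM and in IFRC-like cells 11.6, 25.4 and 0 CPM. Cluster 1 had 38.9 CPM on average (13.1 to 74.5 CPM), against 5.86 CPM in MedRC-like and 2.54 CPM in TBRC-like cells. For cluster 7, the library and the cluster cannot be told apart here.

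Across the libraries as wholes, Tnfsf11 was at 130, 116 and 130 CPM, Tnfsf13b at 196, 201 and 154 CPM and Tnfsf12 at 113, 73.5 and 125 CPM. The 1-IC value of Tnfsf11 lay within the range of the 2-IC libraries, that of Tnfsf13b below it and that of Tnfsf12 above it. With 1 library of the 1-IC condition there was no replicate and no test of time.

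Other TNF family genes were read from 3 lists. Of 14 ligands, 3 were tested and all were called across stromal types, where 30.4% of all tested genes were called. They were Tnfsf9 (mean 43.8 CPM), which encodes the ligand of 4-1BB, Tnfsf8 (29.0 CPM, highest in cluster 6 at 97.5 CPM), the CD30 ligand, and Ltb (12.1 CPM, highest in FDC-like cells at 28.9 CPM), a subunit of lymphotoxin. Of 22 receptors, 7 were tested and 5 called. The most abundant were Tnfrsf1a (161 CPM, adjusted p = 0.0801), the first TNF receptor, Ngfr (118 CPM, 0.000421), the low-affinity nerve growth factor receptor, and Fas (115 CPM, 2.04e-05), a death receptor. Of 24 genes of the signal chain to NF-kB, 20 were tested and 8 called, a share near that of all genes. The most abundant were the inhibitor Nfkbia (1371 CPM), the ubiquitin ligase Birc2 (231 CPM, 400 CPM in FDC-like cells) and the NF-kB brake Tnfaip3 (143 CPM, 298 CPM in FDC-like cells).

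In FDC-like against TBRC-like cells, where 25.3% of all genes were called, 4 of the 7 receptors tested were higher and 0 lower (median log2 fold change 0.84), and 5 of the 20 genes of the signal chain were higher and 0 lower (0.48), with a median of -0.00077 over all genes. Against IFRC-like cells, where 21.0% of all genes were called, 4 receptors were higher and 1 lower (0.61), and 5 genes of the chain higher and 0 lower (0.39), with -0.03 over all genes. The called share of the signal chain was thus near that of all genes in both comparisons. Named after their values were seen, the 4 receptors were Fas, Tnfrsf19, Relt and Tnfrsf21 in both comparisons, and Ngfr was the lower one. A gene high in 1 type alone could pass the filter on low counts. The tested genes may therefore lean toward those high in FDC-like cells, such as Tnfrsf19 (33.6 CPM, against 0.634 CPM in TBRC-like cells). The counts, medians and p-values given here can partly restate that filter and are descriptions. Traf1, a TNF receptor adaptor, stood at 107 CPM in FDC-like, 19.8 CPM in IFRC-like and 14.9 CPM in TBRC-like cells (log2 fold change -2.55 for IFRC-like over FDC-like, edgeR adjusted p = 5.36e-09). Tnfrsf21 (death receptor 6) stood at 112, 20.1 and 5.32 CPM in the same types (-2.44, 7.01e-08). Of the ligands tested, 1 (Tnfsf8) was higher in FDC-like than in IFRC-like cells and none was called against TBRC-like cells. TBRC-like over FDC-like was -1.25 for Ltb (edgeR adjusted p = 0.0712), 1.01 for Tnfsf9 (0.0862) and 0.09 for Tnfsf8 (0.889).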

How the data were processed

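Cells of 3 libraries were read with the 10x Genomics 3' kit, and the authors aligned the reads to GRCm38 (mm10) and deposited raw UMI counts per gene and barcode without normalization (Cell Ranger 5.0.0 per the file headers). As in the study's methods, barcodes were dropped for fewer than 200 genes, for more than 10% mitochondrial UMIs, or for a UMI from 13 contaminant genes. The libraries were merged without integration in Seurat 5.3.0 (R 4.3.3; 2000 variable genes, 10 principal components, 20 neighbours, resolution 0.8), and the 7 genes entered neither the variable genes nor the naming markers. Doublets were not removed, and Scrublet (scanpy 1.11.5), an alternative, called 11, 17 and 11. Libraries were grouped by their titles, since the short descriptions of the 2-IC libraries conflict with these. They name 24 h for replicate 1 and 7 days for replicate 2, so the 2 libraries may differ in more than replication.

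Counts were summed per library and cluster (at least 5 cells, types in at least 2 libraries), because cells are not replicates, and tested with edgeR 4.0.16 (TMM, filterByExpr, quasi-likelihood). The fit included library as a block, as the sums of a library share 1 suspension, and genes with a Benjamini-Hochberg adjusted p under 0.05 were called. DESeq2 1.42.0, no TMM, no filter, no block, other clustering settings, doublets or the contaminant filter left out, thinning to 2000 UMIs, larger sums, types by marker UMIs and leaving out each library were alternatives. Other clustering settings, doublets or the contaminant filter left out, larger sums and types by marker UMIs were run only across all types. Pairs and splits were not recomputed under them. CPM has the summed UMIs as its denominator, and a count of 0 was taken to allow 3 counts. Intervals of CPM and of shares are exact 95% intervals that cover counting error only. Standard errors of log2 fold changes were derived as the absolute log2 fold change over the square root of the F statistic of the edgeR fit. Intervals of log2 fold changes use these and a t distribution with the residual degrees of freedom of the fit, and are approximate. The p-values of that fit also draw on spread shared across genes. The procedure was tested on simulated data. The members, markers and gene lists were chosen with earlier results of these data known. All 7 genes are named, with the 5 genes most like Tnfsf11 and Tnfsf13b (Tnfrsf11b was too sparse for such a list) and the 3 most abundant genes of each list. Traf1, Tnfrsf21, Tnfrsf19, Relt and genes that lead a cluster were named after their values were seen.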

Additional observations from a re-analysis of the deposited data

Results flagged for a closer look

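In the 1-IC library Tnfsf13b was 16.4 CPM higher in IFRC-like than in MedRC-like cells, while the difference was -2.26 and -9.40 CPM in the 2-IC libraries. Tnfsf12 moved in the same way, with 0.0514 CPM in the 1-IC library and -1.52 and -49.3 CPM in the 2-IC libraries. In both cases the sign in the 1 library of the 1-IC condition was opposite to that in both 2-IC libraries, which drew attention to them. Differences of 0.0514, -1.52 and -2.26 CPM are close to none, so their signs carry little. Over all libraries neither gene was called between the types (edgeR adjusted p = 0.980 for Tnfsf13b and 0.805 for Tnfsf12). The difference between conditions was not tested, as the 1-IC condition has no replicate.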

How the results depend on the processing

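The 14 calls of Tnfsf11, Tnfsf13b and Tnfsf12 in pairs and splits were recomputed, and 147 alternatives gave a value for the gene. Of these, 123 kept the direction and the call, 24 kept the direction and lost the call, and 0 reversed. These alternatives all kept the same cluster labels, and those that removed only FDC-like cells left the sums of pairs without that type unchanged. The adjusted p across stromal types was 1.49e-16 to 1.28e-05 for Tnfsf11 and 5.2e-08 to 0.0158 for Tnfsf13b when a library was left out. For Tnfsf12 it was 0.00132 to 0.319 in this way (0.319 without the 1-IC library), 0.0596 without the replicate block and 0.382 in thinned cells. Genes called across stromal types numbered 2073, and 4117 with the contaminant filter left out, 749 in thinned cells (2097 genes tested) and 907 to 2279 with a library left out (907 without 2-IC replicate 1). Of 30 tests in pairs 12 were called, and 5 to 17 with a library left out (6 without 2-IC replicate 1, 5 without the 1-IC library). In the Cr2 split 203 genes were called, and 91 without the replicate block, 93 in DESeq2, 49 in thinned cells, 133 without shared barcodes and 110 to 190 with a library left out. In the Malat1 split 747 genes were called, and 455 without the replicate block, 206 in DESeq2, 170 in thinned cells and 308 to 685 with a library left out. The cause was not tested. Leaving out shared barcodes, FDC-like cells without Cr2 or Malat1-poor cells was chosen after seeing the data.

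Sums rest on as few as 5 cells, 2-IC replicate 2 is deeper and gave 8 TBRC-like and 10 MedRC-like cells, and leaving out a library leaves some types with 1 sum, assumed to vary like the others. Tnfrsf11b, Tnfrsf11a, Tnfsf10 and Tnfrsf12a did not pass the filter on low counts and were not followed through the alternatives.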
